A study of Mus musculus with 12 samples.

Results

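Type 1 conventional dendritic cells (cDC1) were followed through 9 of their genes, Xcr1, Clec9a, Cadm1, Cd8a, Naaa, Wdfy4, Snx22, Gcsam and Clnk, in RNA of CD11c cells from the mouse inguinal lymph node. The genes were taken by name as known markers of this cell type, with earlier results of these data known. They are 9 of the 52355 genes in the summed table, and all 9 passed the filter on low counts that left 23729 genes for testing. RNA was sequenced in 12 libraries, 4 in each of 3 groups. The TdLN_CD40 group came from lymph nodes draining a tumor in mice that had received a CD40 agonist, which stimulates the receptor through which helper T cells license dendritic cells. The TdLN group came from tumor-draining nodes without the agonist. The Healthy_iLN group came from inguinal nodes of mice with neither tumor nor agonist. The study's title gives the tumor as subcutaneous KPC, a name in common use for a mouse pancreatic cancer model. The sources used here do not give mouse strain, sex and age, how CD11c cells were picked, the agonist's dose and timing, any control injection or the number of animals per library. Each group holds 1 library of each of 4 title prefixes, numbered 1 to 4 below. What a prefix stands for is not given.

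cDC1 are the dendritic cells that take up dead cells and present their antigens to CD8 T cells, a route called cross-presentation. They depend on the transcription factors Batf3 and Irf8 and on the growth factor receptor Flt3, and in a lymph node they comprise resident cells and cells that migrated in from the tissue. Resident cells of this type carry CD8 alpha in the mouse, and dendritic cells change many surface molecules when they mature. In bulk RNA of this kind, fewer cDC1 among the CD11c cells and less RNA of a gene per cDC1 cannot be told apart.

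Of the 9 genes, 4 encode cell surface proteins. Xcr1 is the receptor for the chemokine Xcl1, Clec9a is a lectin that binds actin filaments exposed by dead cells, Cadm1 is an adhesion molecule that binds Crtam on activated lymphocytes, and Cd8a is the alpha chain of CD8, which T cells also carry. The other 5 encode intracellular proteins. Naaa is a lysosomal amidase of N-acylethanolamines, Wdfy4 is a BEACH domain protein needed for cross-presentation, Snx22 is a sorting nexin, Gcsam is a signaling protein first described in germinal center B cells, and Clnk is an adaptor related to the T cell adaptor Lcp2. The surface genes lie on chromosome 9 (Xcr1, 123852315 to 123862029, minus strand, and Cadm1, 47530173 to 47857637, plus strand) and chromosome 6 (Clec9a, 129408862 to 129424763, and Cd8a, 71373427 to 71379173, both plus strand) of GRCm38, per GENCODE M21. Snx22 lies on chromosome 9 as well, Naaa and Clnk on chromosome 5, Wdfy4 on chromosome 14 and Gcsam on chromosome 16.

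The 250 bases before the start are shown for the 3 surface genes with a matched promoter, as a description only. They are given 5′ to 3′ on the gene's strand from RefSeq (GRCm38.p6): Xcr1 at chr9:123862030-123862279 (minus strand), Clec9a at chr6:129408612-129408861 (plus strand) and Cd8a at chr6:71373177-71373426 (plus strand). Capitals mark matches to GGAANNGAAA on the strand opposite the gene.
Xcr1: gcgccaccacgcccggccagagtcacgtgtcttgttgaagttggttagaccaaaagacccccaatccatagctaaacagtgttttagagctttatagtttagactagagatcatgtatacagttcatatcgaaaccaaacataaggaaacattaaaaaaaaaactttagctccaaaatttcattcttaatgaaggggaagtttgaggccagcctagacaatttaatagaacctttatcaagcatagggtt
Clec9a: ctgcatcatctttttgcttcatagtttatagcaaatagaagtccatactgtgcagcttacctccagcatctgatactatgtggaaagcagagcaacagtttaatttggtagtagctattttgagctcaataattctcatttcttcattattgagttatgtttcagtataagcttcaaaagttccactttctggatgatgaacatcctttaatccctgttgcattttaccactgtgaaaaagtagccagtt
Cd8a: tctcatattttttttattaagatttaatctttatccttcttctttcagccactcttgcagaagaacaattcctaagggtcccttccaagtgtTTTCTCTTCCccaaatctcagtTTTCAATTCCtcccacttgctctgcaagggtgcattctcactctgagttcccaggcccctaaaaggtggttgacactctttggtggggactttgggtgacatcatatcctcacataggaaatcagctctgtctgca
RefSeq promoters matched 8 of the 9 genes in 9 windows (Snx22 has a pair of starts, and Cadm1 was not matched). On both strands, TGANTCA (an AP-1 type motif, as Batf3 binds) matched 0 of the 9 windows and 6.75% of 32851 promoters, and GAAANNGAAA (an interferon-response type motif) matched 0 of 9 and 2.98%. GGAANNGAAA (an Ets and Irf composite type motif) matched 1 of 9, that of Cd8a, and 2.3% of all promoters. These matches describe letters in the windows and were not tested against the expression values.

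The libraries held 32626784 to 56320661 estimated counts each. The dendritic cell genes Itgax (which encodes CD11c), Flt3 and Zbtb46 were present in every library, at 641 to 1130 CPM (counts scaled to library size), 324 to 832 CPM and 132 to 213 CPM over the 12 libraries. Libraries of 1 prefix resembled each other: their deviations from the group means over all tested genes correlated with r of 0.20 to 0.47 in all 12 pairs. In the 36 pairs of different prefixes r ran from -0.45 to 0.33, with a median of -0.24, so that the ranges overlapped. The labels do not say that libraries came from separate animals, so the p-values measure only the spread between these libraries, which may be technical. Unless said otherwise, adjusted p-values are from the quasi-likelihood test of edgeR, by the Benjamini-Hochberg method over all tested genes. A gene was called at an adjusted p under 0.05, and fits with the prefix as a block are given where they change a call.

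Per length of transcript, in TPM (abundance scaled by transcript length and library size), the 9 genes spanned a wide range of levels. In TdLN_CD40 libraries the mean level was 221 ± 75.5 TPM for Wdfy4, 193 ± 75.8 for Naaa, 33.6 ± 15.3 for Cd8a, 30.2 ± 11.5 for Clec9a, 22.3 ± 7.30 for Cadm1, 17.7 ± 8.82 for Xcr1, 16.4 ± 6.95 for Gcsam, 7.64 ± 3.06 for Snx22 and 1.75 ± 0.660 for Clnk (SD, n = 4 here and below). In TdLN libraries it was 427 ± 115 TPM for Naaa, 362 ± 106 for Wdfy4, 70.7 ± 25.5 for Cd8a, 56.2 ± 6.87 for Clec9a, 35.4 ± 10.6 for Xcr1, 33.3 ± 6.98 for Cadm1, 29.9 ± 6.04 for Gcsam, 14.7 ± 3.85 for Snx22 and 2.62 ± 0.892 for Clnk. In Healthy_iLN libraries it was 516 ± 115 TPM for Naaa, 408 ± 118 for Wdfy4, 89.0 ± 20.4 for Cd8a, 72.7 ± 10.5 for Clec9a, 50.0 ± 11.3 for Xcr1, 43.0 ± 9.61 for Cadm1, 37.1 ± 5.52 for Gcsam, 18.0 ± 3.94 for Snx22 and 3.27 ± 0.714 for Clnk. The order was the same in TdLN and Healthy_iLN, while Wdfy4 and Naaa, and Cadm1 and Xcr1, changed places in TdLN_CD40 within their spread. Neighbours in the Healthy_iLN order overlapped between libraries except at 3 steps, from Wdfy4 to Cd8a, from Gcsam to Snx22 and from Snx22 to Clnk. Several genes were read from more than 1 transcript. The transcript Cd8a-203, annotated as a retained intron, held 45.8% of the TPM of Cd8a in TdLN_CD40, 41.0% in TdLN and 40.7% in Healthy_iLN (means), and Cadm1-203, a coding transcript, held 45.3%, 47.8% and 50.1% of that of Cadm1 in the same 3 groups.

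All 9 genes had their lowest mean in TdLN_CD40 and their highest in Healthy_iLN, and the fold changes below describe how far and how evenly. Xcr1 had 47.6, 154, 87.1 and 103 CPM in TdLN_CD40 replicates 1 to 4, 135, 212, 188 and 259 CPM in TdLN replicates and 206, 273, 334 and 278 CPM in Healthy_iLN replicates. The TdLN_CD40 libraries all lay below the Healthy_iLN libraries, and TdLN_CD40 replicate 2 lay within the TdLN range. Clec9a had 38.8, 74.8, 45.5 and 50.8 CPM in TdLN_CD40, 74.1, 93.4, 91.6 and 107 CPM in TdLN and 107, 115, 137 and 115 CPM in Healthy_iLN. Its TdLN libraries all lay just below its Healthy_iLN libraries, which held for no other of the 9 genes and for 1.69% of tested genes in that direction, and TdLN_CD40 replicate 2 just passed TdLN replicate 1.

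Cadm1, the adhesion molecule, varied less. It had 64.7, 113, 64.8 and 82.3 CPM in TdLN_CD40, 96.4, 127, 129 and 143 CPM in TdLN and 126, 148, 174 and 185 CPM in Healthy_iLN, so that TdLN_CD40 replicate 2 again fell within the TdLN range. Cd8a had 46.5, 144, 111 and 139.6 CPM in TdLN_CD40, 139.0, 236, 221 and 352 CPM in TdLN and 223, 254, 392.3 and 295 CPM in Healthy_iLN. For Cd8a, TdLN_CD40 replicate 1 stood furthest from the rest of its group, and replicates 2 and 4 reached the lowest TdLN library.

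Among the intracellular genes, Naaa had 198, 446, 293 and 331 CPM in TdLN_CD40, 483, 642, 725 and 947 CPM in TdLN and 607, 741, 1046 and 952 CPM in Healthy_iLN. Snx22 had 11.4, 29.4, 26.1 and 29.8 CPM in TdLN_CD40, 32.1, 41.6, 49.5 and 64.2 CPM in TdLN and 39.3, 51.6, 62.5 and 65.7 CPM in Healthy_iLN. These were the 2 genes of the 9 whose TdLN_CD40 libraries all lay below every TdLN library. Gcsam had 25.4, 71.1, 49.3 and 50.8 CPM in TdLN_CD40, 67.9, 99.0, 98.6 and 107 CPM in TdLN and 90.7, 113, 124 and 121 CPM in Healthy_iLN. Only TdLN_CD40 replicate 2 passed the lowest TdLN library for this gene.

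Wdfy4, needed for cross-presentation, had 698, 1450.3, 1633 and 1492 CPM in TdLN_CD40, 1406, 1963, 2519 and 2981 CPM in TdLN and 1642, 2131, 3037 and 2941 CPM in Healthy_iLN. Clnk, the least abundant of the 9, had 2.28, 4.84, 3.42 and 4.33 CPM in TdLN_CD40, 3.56, 5.55, 5.09 and 8.07 CPM in TdLN and 5.35, 5.88, 8.67 and 7.07 CPM in Healthy_iLN. For both, TdLN_CD40 and TdLN libraries overlapped while TdLN_CD40 and Healthy_iLN libraries did not.

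**Figure D1:**
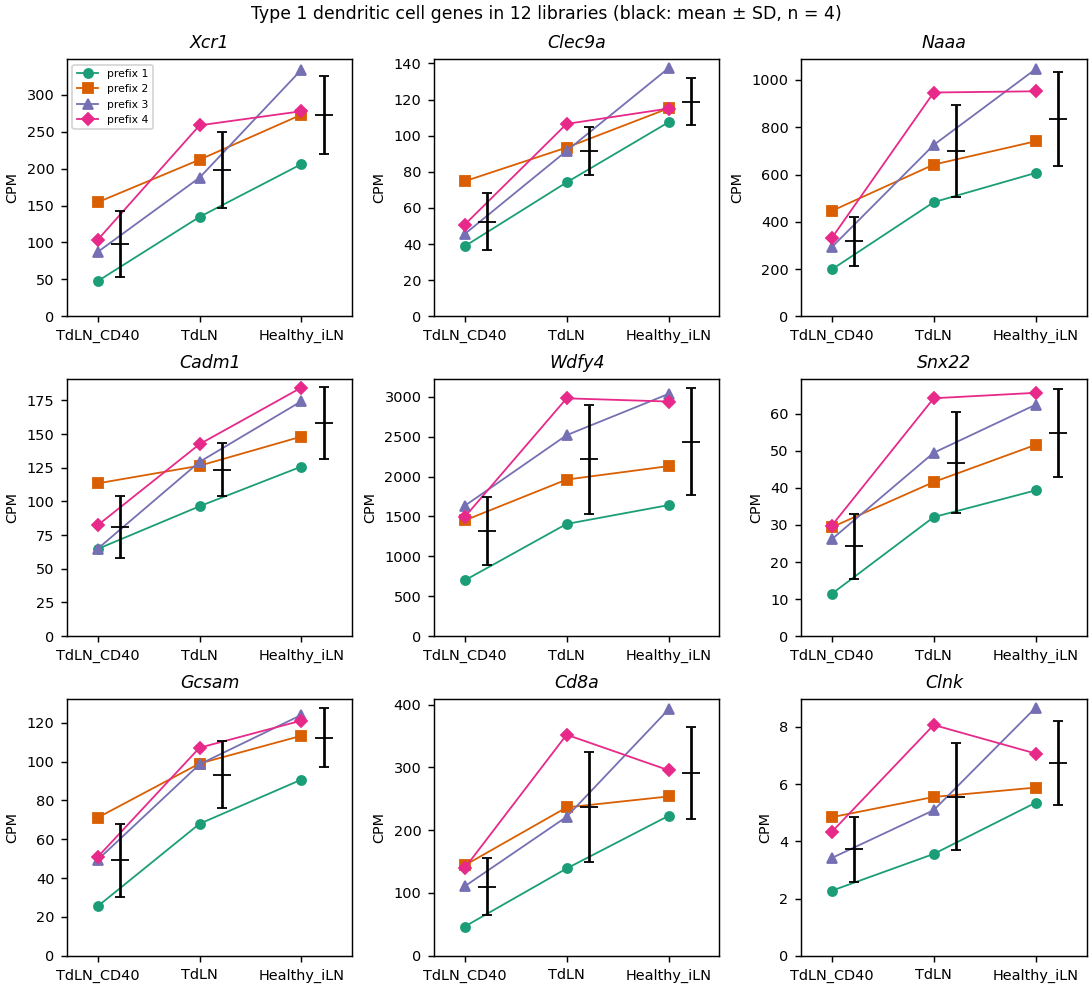
CPM (y axis, linear, from 0) of each of the 9 genes in the 12 libraries, by group on the x axis; symbols and lines join libraries of the same title prefix, and black bars are the group mean ± SD (n = 4). Prefix 1 was the lowest of its group for all 9 genes in all 3 groups, and every TdLN_CD40 library lay below every Healthy_iLN library.

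The libraries of a group were ordered alike by most of the genes. Replicate 1 was the lowest library for 9 of 9 genes in TdLN_CD40, in TdLN and in Healthy_iLN. The share of all tested genes with this order was not counted. Genes outside the 9, among them Flt3 and Siglech, also had replicate 1 lowest in each group, and others, among them Id2, did not. The highest library differed between groups: TdLN_CD40 replicate 2 was highest for 7 of 9 genes, TdLN replicate 4 for 9 of 9 and Healthy_iLN replicate 3 for 7 of 9. Relative to its group mean, replicate 1 lay at a median over the 9 genes of -0.84 on the log2 scale in TdLN_CD40, -0.50 in TdLN and -0.35 in Healthy_iLN.

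Tumor-draining nodes with and without the agonist were compared in TdLN_CD40 against TdLN. Clec9a and Naaa fell, by 1.74-fold (-0.80 on the log2 scale, SE 0.18, adjusted p = 0.0335) and 2.21-fold (-1.14 on the log2 scale, SE 0.26, adjusted p = 0.0304). The other 7 genes lay at log2 fold changes of -0.58 (Clnk, adjusted p = 0.423) to -1.11 (Cd8a, adjusted p = 0.112) and did not pass, with Xcr1 at -1.01 (SE 0.29, adjusted p = 0.0886) and Gcsam at -0.92 (SE 0.24, adjusted p = 0.0607). The count was thus 2 of 9 lower, against 0.83% of all tested genes called lower (2.68% in either direction). The median log2 fold change was -0.92 over the 9 genes and 0.017 over all tested genes.

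With the prefix as a block, 8 of the 9 genes were called lower, against 6.58% of all tested genes (13.3% in either direction). Clnk was the exception (log2 fold change -0.57, adjusted p = 0.0684), Wdfy4 stood at -0.76 (adjusted p = 0.00101), Snx22 at -0.99 (adjusted p = 0.00169) and Xcr1 at -1.08 (adjusted p = 0.0140). All 9 genes were lower in TdLN_CD40 in all 4 prefix pairs, which held for 16.4% of tested genes. Groups without overlap, as for Naaa and Snx22, were found in this direction for 3.4% of tested genes. The unblocked calls of Clec9a and Naaa each ended when TdLN replicate 2, 3 or 4 or TdLN_CD40 replicate 1, 3 or 4 was left out (adjusted p of 0.0708 to 0.106 for Clec9a and 0.0653 to 0.0946 for Naaa). Without TdLN_CD40 replicate 2, 5 of 9 genes were called lower, against 472 over all genes (126 lower). Without prefix 1 in every group, 4 of 9 genes were called lower, Naaa, Snx22, Gcsam and Cd8a, against 352 over all genes (117 lower). With the block 4 were called lower as well, Naaa, Wdfy4, Snx22 and Gcsam, against 1609 over all genes (685 lower).

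Tumor-draining nodes without the agonist were set against healthy nodes in TdLN against Healthy_iLN, which shares the TdLN libraries with the comparison above. All 9 genes had log2 fold changes below 0, from -0.14 for Wdfy4 (SE 0.29) to -0.46 for Xcr1 (SE 0.29), with a median of -0.28 against -0.017 over all tested genes. In edgeR's quasi-likelihood test 0 of 9 passed, against 0.198% of all tested genes (0.0169% lower), and 0 of 9 had an unadjusted p under 0.05. With the block 0 of 9 passed as well, against 6.3% of all tested genes (2.28% lower). There 3 of 9, Xcr1, Clec9a and Cadm1, had an unadjusted p under 0.05, and DESeq2 also called 0 of 9. The smallest adjusted p with the block was that of Clec9a (log2 fold change -0.39, 95% interval -0.72 to -0.058, adjusted p = 0.144). Of the 9 genes, 6 were lower in all 4 prefix pairs, against 17% of tested genes, and Wdfy4, Cd8a and Clnk were slightly higher in TdLN than in Healthy_iLN in prefix 4. Without TdLN replicate 1, the log2 fold change of Wdfy4 was 0.012.

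Between agonist-treated tumor-bearing mice and healthy mice (TdLN_CD40 against Healthy_iLN, which shares libraries with both comparisons above), 7 of 9 genes were called lower, against 2.03% of all tested genes (6.28% in either direction). Xcr1 fell 2.78-fold (-1.47 on the log2 scale, SE 0.29, adjusted p = 0.00742). Clec9a fell 2.26-fold (-1.18 on the log2 scale, SE 0.19, adjusted p = 0.00158). Naaa (-1.40, adjusted p = 0.00460), Cd8a (-1.40, adjusted p = 0.0227), Gcsam (-1.19, adjusted p = 0.00859), Snx22 (-1.18, adjusted p = 0.0223) and Cadm1 (-0.96, adjusted p = 0.00790) fell too. Wdfy4 (-0.89, SE 0.29, adjusted p = 0.0959) and Clnk (-0.86, SE 0.29, adjusted p = 0.100) did not pass, and with the block all 9 did, against 8.46% of tested genes called lower (20.1% in either direction). TdLN_CD40 libraries lay below all Healthy_iLN libraries for 9 of 9 genes, which held for 4.75% of tested genes, and all 9 were lower in all 4 prefix pairs, which held for 19.8%. The calls of Cd8a and Snx22 ended without Healthy_iLN replicate 3, Healthy_iLN replicate 4 or TdLN_CD40 replicate 3 (adjusted p of 0.0545 to 0.0797 for Cd8a and 0.0615 to 0.0716 for Snx22). Without prefix 1 in every group, 8 of 9 genes were called lower, with or without the block. Over all genes, 1001 were called there (299 lower), and 2751 with the block (1101 lower).

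**Figure D2:**
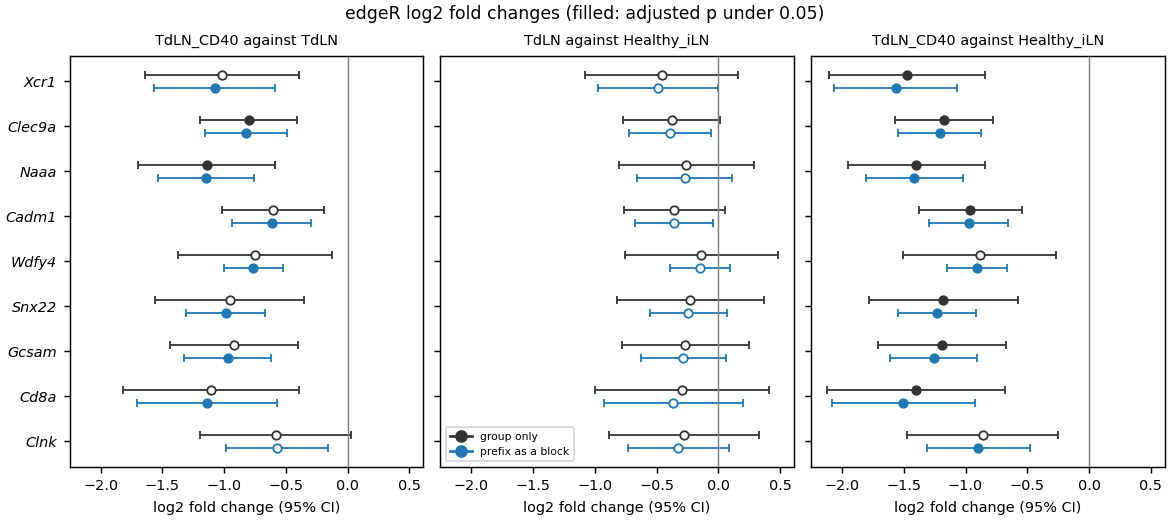
Log2 fold changes (x axis) of the 9 genes (y axis) in the 3 comparisons, with 95% intervals; black points come from the fit with group only, blue points from the fit with the prefix as a block, and filled points have an adjusted p under 0.05. The block narrows the intervals and changes the points little, so that the number of filled points goes up to 8 of 9 in TdLN_CD40 against TdLN and 9 of 9 in TdLN_CD40 against Healthy_iLN, and is 0 of 9 in TdLN against Healthy_iLN.

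Whether the genes fell by a shared factor or apart was read within prefixes, as the log2 CPM of a library minus that of the library of the other group with the same prefix. For TdLN_CD40 against TdLN all 36 differences were below 0, with a median of -0.998 and a range of -1.58 to -0.16. Prefixes differed more than genes: the median over the 9 genes was -1.28 in prefix 1 (2.43-fold lower), -0.46 in prefix 2 (1.37-fold lower), -0.998 in prefix 3 and -1.08 in prefix 4. Of the spread of these 36 values, 58.2% lay between prefixes, 29.1% between genes and 12.7% in neither. Within a prefix the SD over the 9 genes was 0.38, 0.17, 0.23 and 0.23 for prefixes 1 to 4, against 0.74, 0.63, 0.85 and 0.80 over all tested genes. The tested genes include many levels, also low ones, and were not matched to the 9 by level.

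The genes kept a partly common order within prefixes. Cd8a or Naaa had the lowest difference between TdLN_CD40 and TdLN in each of the 4 prefixes, and Cadm1 or Clnk the smallest in size. In prefix 1 the differences were -1.58 for Cd8a, -1.50 for Xcr1, -1.49 for Snx22 and -1.42 for Gcsam, against -0.64 for Clnk and -0.58 for Cadm1. In prefix 2 the same genes spanned -0.71 for Cd8a to -0.16 for Cadm1.

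For TdLN against Healthy_iLN 33 of 36 differences were below 0, with a median of -0.31 and prefix medians of -0.42, -0.21, -0.53 and -0.033. Of their spread 60.0% lay between prefixes, 11.7% between genes and 28.3% in neither. The 3 values above 0 were all in prefix 4, Cd8a at 0.25, Clnk at 0.19 and Wdfy4 at 0.020. For TdLN_CD40 against Healthy_iLN all 36 were below 0, from -2.26 (Cd8a, prefix 1) to -0.28 (Clnk, prefix 2), with prefix medians of -1.61, -0.67, -1.43 and -1.17.

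**Figure D3:**
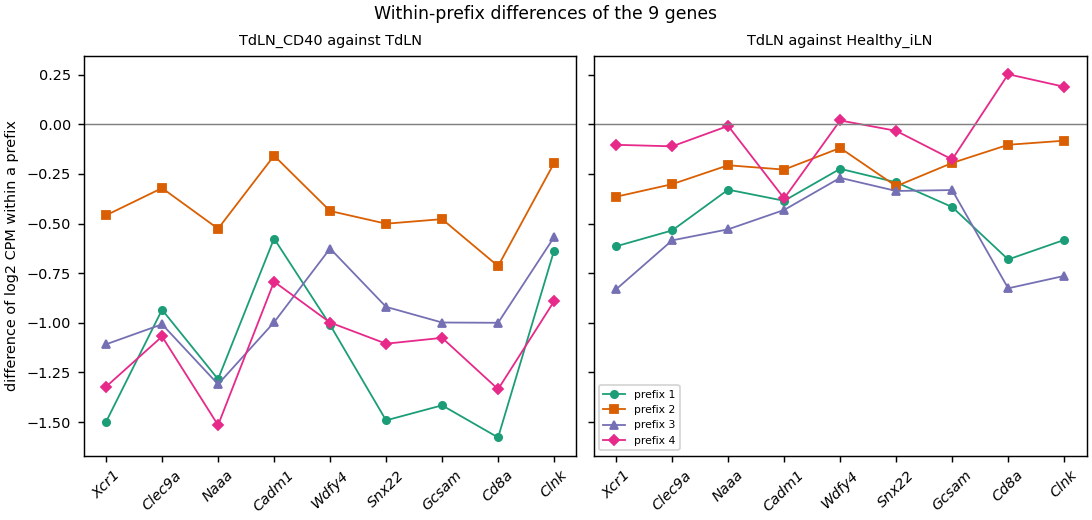
Difference of log2 CPM within a title prefix (y axis) for the 9 genes (x axis), TdLN_CD40 minus TdLN on the left and TdLN minus Healthy_iLN on the right; each line is a prefix and each point 1 pair of libraries. The lines on the left all run below 0, with prefix 2 nearest to 0 (median -0.46) and the other 3 crossing, and Cadm1 and Clnk lie higher than their neighbours in prefixes 1, 2 and 4.

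Set against Xcr1 in the same library, several of the genes held a close to constant ratio. The SD over the 12 libraries of the log2 ratio to Xcr1 was 0.18 for Gcsam, 0.18 for Naaa and 0.19 for Cd8a, the 3 smallest among the 23728 other tested genes. It was 0.25 for Snx22 (rank 9), 0.28 for Clec9a (rank 13), 0.35 for Clnk (rank 40), 0.37 for Cadm1 (rank 52) and 0.39 for Wdfy4 (rank 65). Over all these genes the median SD was 0.95 and the 5th percentile 0.67. The log2 CPM of Xcr1 itself had an SD of 0.82, which is where a gene of constant level would lie. The levels of the 9 genes themselves ranged over 2.85-fold (Cadm1) to 8.43-fold (Cd8a) across the libraries. Cadm1 was nearer to Clec9a, with an SD of its log2 ratio to Clec9a of 0.16 (rank 7). In TdLN_CD40 against TdLN the log2 fold changes of Cadm1 (-0.61) and Clec9a (-0.80) were smaller in size than that of Xcr1 (-1.01). These SDs describe libraries that share group, prefix and cell mixture, and carry no test. The genes ranked beside the 9 were not matched to them by level.

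The direction of what ratio change there was is given by group. Clnk had a log2 ratio to Xcr1 of -4.64 ± 0.26 in TdLN_CD40, -5.16 ± 0.11 in TdLN and -5.33 ± 0.13 in Healthy_iLN (SD, n = 4 each), and the groups did not overlap in any of the 3 comparisons. Cadm1 had -0.19 ± 0.42 in TdLN_CD40, -0.66 ± 0.18 in TdLN and -0.78 ± 0.16 in Healthy_iLN, with TdLN_CD40 above both other groups in every library. Wdfy4 had 3.80 ± 0.41 in TdLN_CD40, 3.47 ± 0.23 in TdLN and 3.14 ± 0.20 in Healthy_iLN, higher in 4 of 4 prefix pairs of each comparison but with overlapping groups.

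Other ratios moved less. Gcsam had -0.97 ± 0.13 in TdLN_CD40, -1.07 ± 0.15 in TdLN and -1.27 ± 0.11 in Healthy_iLN, and only its TdLN_CD40 and Healthy_iLN libraries were apart. Cd8a had 0.16 ± 0.27 in TdLN_CD40, 0.22 ± 0.17 in TdLN and 0.082 ± 0.14 in Healthy_iLN, and Naaa 1.75 ± 0.22, 1.82 ± 0.15 and 1.61 ± 0.14 in these groups, all overlapping. A ratio to Xcr1 without overlap and higher in the first-named group was found for 19.3% of genes in TdLN_CD40 against TdLN, 18.4% in TdLN against Healthy_iLN and 59.5% in TdLN_CD40 against Healthy_iLN, so that the separation of Cadm1 and Clnk is shared with many other genes.

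**Figure D4:**
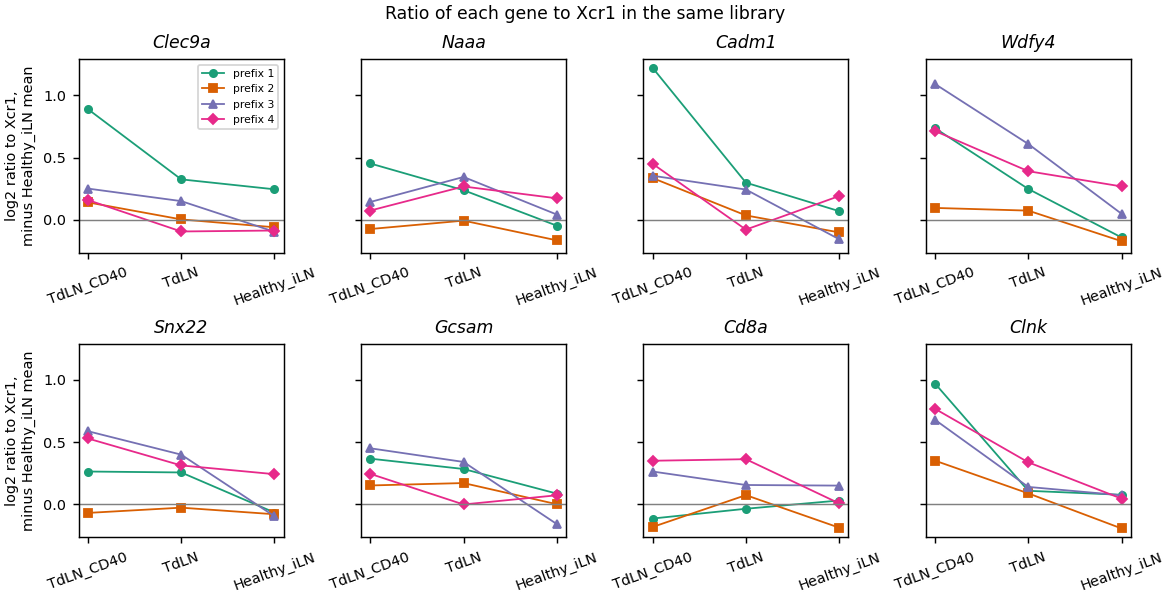
Log2 ratio of each of the other 8 genes to Xcr1 in the same library, minus the mean of the Healthy_iLN libraries (y axis), by group (x axis); lines join libraries of the same prefix. Naaa and Cd8a overlap between all 3 groups, while all 4 TdLN_CD40 libraries of Clec9a, Cadm1, Wdfy4, Gcsam and Clnk lie above 0.

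The ratios were tested by scaling each library to its Xcr1 count in edgeR's quasi-likelihood fit over all genes. That scaling shifts the median gene by 1.20 on the log2 scale in TdLN_CD40 against TdLN, 0.48 in TdLN against Healthy_iLN and 1.65 in TdLN_CD40 against Healthy_iLN, and a gene that fell by the same factor as Xcr1 lies at 0. Of the 8 genes besides Xcr1, 0 were called in each of the 3 comparisons, against 54.7%, 0.906% and 71.9% of all tested genes. An unadjusted p under 0.05 was reached by 0, 0 and 1 of the 8. In TdLN_CD40 against TdLN the log2 values relative to Xcr1 were -0.054 for Naaa, -0.049 for Cd8a, 0.10 for Gcsam, 0.11 for Snx22, 0.29 for Clec9a, 0.36 for Wdfy4, 0.51 for Cadm1 and 0.53 for Clnk. Their 95% intervals ran from -0.70 for Naaa at the lowest end to 1.51 for Clnk at the highest, so that unequal falls of up to these sizes are within the error.

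With the prefix as a block, 3 of the 8 genes were called higher relative to Xcr1 in TdLN_CD40 against Healthy_iLN, against 86.4% of all tested genes called higher. They were Cadm1 (0.59, 95% interval 0.099 to 1.09, adjusted p = 0.0227), Wdfy4 (0.66, 95% interval 0.17 to 1.15, adjusted p = 0.0110) and Clnk (0.69, 95% interval 0.031 to 1.34, adjusted p = 0.0464), which thus fell less than Xcr1 did. With the block 0 of 8 were called in TdLN_CD40 against TdLN or TdLN against Healthy_iLN, against 79.8% and 6.62% of all tested genes called higher. Without the block but also without TdLN_CD40 replicate 2, Cadm1 (0.72, adjusted p = 0.0133) and Wdfy4 (0.85, adjusted p = 0.00430) were called against Healthy_iLN, and Cadm1 (0.60, adjusted p = 0.0401) against TdLN. With Clec9a in the place of Xcr1, 0 of 8 were called in each comparison, with and without the block, and without prefix 1 in every group 0 of 8 were called relative to Xcr1.

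The genes outside the 9 whose ratio to Xcr1 varied least over the 12 libraries, at an SD of 0.20 to 0.28, were Itga8, Plce1, Kctd14, Tlr3, Gpr141b, Lrrc3, Plxdc1 and Grap2. Tlr3, the endosomal receptor for double-stranded RNA and a known cDC1 gene, had an SD of 0.24, and Itga8, an integrin alpha chain, had an SD of 0.20. Their mean log2 differences in TdLN_CD40 minus TdLN were -0.93 for Tlr3 and -1.44 for Itga8, and in TdLN minus Healthy_iLN they were -0.42 and -0.34.

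A further 21 genes of cDC1 did not all follow the 9. In TdLN_CD40 against TdLN, 197 of all tested genes were called lower and 438 higher (1561 and 1600 with the block). Of the 21, 4 were called lower and 1 higher, with a median log2 fold change of -0.69, and with the block 12 were lower and 3 higher. Hepacam2, an immunoglobulin family adhesion protein, fell furthest (log2 fold change -1.65, SE 0.28, adjusted p = 0.00628), followed by the septin gene Sept3 (-1.63, adjusted p = 0.00435), Cd24a, a surface glycoprotein (-0.98, adjusted p = 0.00735), and Plekha5 (-0.74, adjusted p = 0.0107). Ly75, the endocytic receptor also called DEC-205, rose (0.82, SE 0.15, adjusted p = 0.00756). Leaving out any 1 library ended none of these 5 calls. Of the 21, 8 were called without TdLN_CD40 replicate 2 and 11 with DESeq2, against 472 and 1090 over all genes.

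Values by library show the opposite course of Ly75 and Hepacam2. Ly75 had 378, 479, 381 and 505 CPM in TdLN_CD40, 218, 246, 242 and 279.9 CPM in TdLN and 265, 309, 236 and 239 CPM in Healthy_iLN, so that all TdLN_CD40 libraries lay above the rest. Hepacam2 had 5.76, 12.3, 4.73 and 11.6 CPM in TdLN_CD40, 24.1, 28.8, 18.9 and 36.0 CPM in TdLN and 50.4, 54.5, 58.0 and 52.2 CPM in Healthy_iLN, with no overlap between any of the 3 groups.

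Of the transcription factors of the lineage, Batf3, Id2 and Nfil3 did not fall with the 9 genes, and Irf8 was not called lower. Batf3 had log2 fold changes of 0.54 in TdLN_CD40 against TdLN (adjusted p = 0.0815, with the block 0.00264) and 0.53 in TdLN_CD40 against Healthy_iLN (adjusted p = 0.0514, with the block 0.00186), and Irf8 had -0.088 and -0.27 in these comparisons (adjusted p = 0.969 and 0.728). Id2 rose in TdLN_CD40 against Healthy_iLN (0.66, SE 0.13, adjusted p = 0.00809) and stood at 0.52 against TdLN (adjusted p = 0.0551, with the block 0.00110). Nfil3 stood at 0.59 against Healthy_iLN (adjusted p = 0.0705, with the block 0.0326). With the block, Irf8 stood at -0.26 in TdLN_CD40 against Healthy_iLN (adjusted p = 0.0741) and was lower in 4 of 4 prefix pairs. Against TdLN it stood at -0.057 with the block (adjusted p = 0.763) and was lower in 2 of 4 pairs. As background, other dendritic cells also express Irf8 and Id2. Which of the CD11c cells gave the RNA of Batf3, Nfil3, Irf8 and Id2 was not tested.

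In TdLN_CD40 against Healthy_iLN 10 of the 21 were called lower and 2 higher (13 and 4 with the block), with a median of -0.69. Over all tested genes 481 were called lower and 1009 higher (2007 and 2774 with the block). The 10 were Hepacam2 (-2.64), Sept3 (-1.72), Tlr3 (-1.30), the Wnt receptor gene Fzd1 (-1.22), Tlr11, which senses a protozoan profilin (-1.16), Pianp (-1.16), the scavenger receptor Cd36 (-0.98), the lysosomal thioesterase Ppt1 (-0.95), Cd24a (-0.86) and Plekha5 (-0.69), with adjusted p of 0.000150 for Hepacam2 to 0.0287 for Ppt1. The call of Ppt1 ended without any 1 of Healthy_iLN replicates 2, 3 and 4 and TdLN_CD40 replicates 3 and 4 (adjusted p of 0.0584 to 0.0893), and that of Fzd1 without Healthy_iLN replicate 3 (adjusted p = 0.0515). In TdLN against Healthy_iLN 0 of 21 were called in edgeR's quasi-likelihood test, 5 had an unadjusted p under 0.05 and DESeq2 called 0. With the block, Hepacam2 (-1.06, adjusted p = 0.0456) and the sulfotransferase Sult1a1 (-0.67, adjusted p = 0.0106) were called lower. Relative to Xcr1, 12 of 21 were called higher and 1, Hepacam2 (-1.14, adjusted p = 0.00496), lower in TdLN_CD40 against Healthy_iLN, where 71.9% of all tested genes were called in either direction under this scaling.

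**Figure D5:**
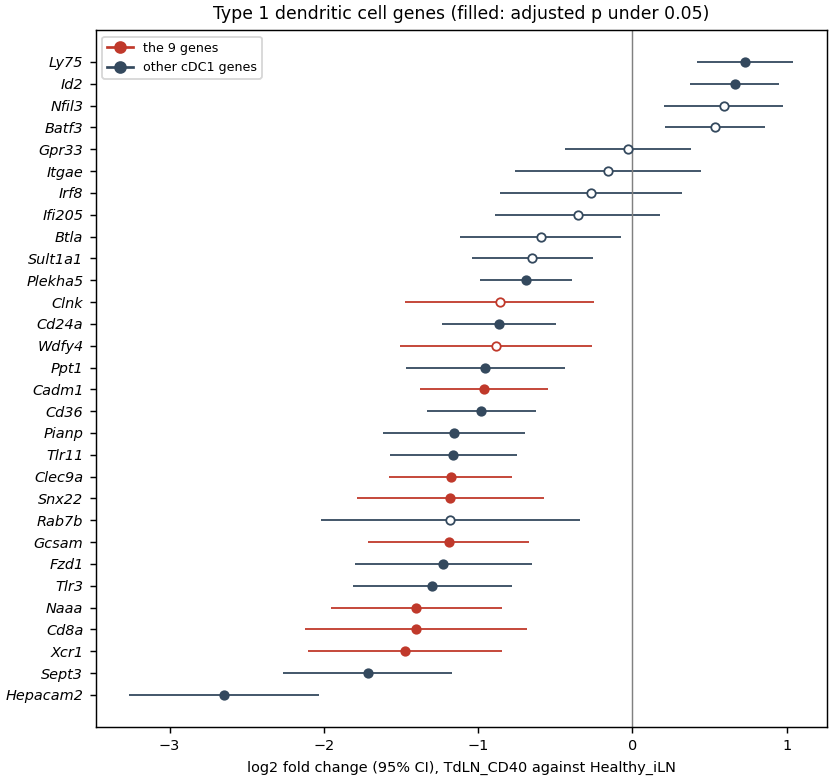
Log2 fold changes with 95% intervals (x axis) in TdLN_CD40 against Healthy_iLN for the 9 genes (red) and 21 other cDC1 genes (dark), sorted by value; filled points have an adjusted p under 0.05. The 9 genes lie between -0.86 and -1.47, Hepacam2 and Sept3 lie below them, and Ly75, Id2, Nfil3 and Batf3 lie above 0.

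Markers of other cells were read beside these results, and their part in the results was not tested. The calls over all 23729 tested genes stand beside the lists here and below. In TdLN_CD40 against TdLN 197 were lower and 438 higher (1561 and 1600 with the block). In TdLN against Healthy_iLN 4 were lower and 43 higher (541 and 954 with the block). In TdLN_CD40 against Healthy_iLN 481 were lower and 1009 higher (2007 and 2774 with the block). Beside Cd8a, the 15 CD8 and T cell markers summed to 121 to 218 CPM in TdLN_CD40, 119 to 278 in TdLN and 152 to 284 in Healthy_iLN, and none was at 0 in every library. Of the 15, 0 were called in TdLN_CD40 against TdLN (2 lower with the block), 0 in TdLN against Healthy_iLN (7 lower and 1 higher with the block) and 5 were called lower in TdLN_CD40 against Healthy_iLN (13 lower and 1 higher with the block). Cd8b1, the CD8 beta chain that conventional CD8 T cells pair with CD8 alpha, had 8.10 to 31.3 CPM in TdLN_CD40, 8.20 to 43.2 in TdLN and 18.0 to 51.0 in Healthy_iLN, at log2 fold changes of -0.34 (adjusted p = 0.911) against TdLN and -0.70 (adjusted p = 0.607, with the block 0.0442) against Healthy_iLN. The T cell receptor complex genes Cd3d and Cd3e stood at or below 9.58 and 7.36 CPM in every library.

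Per length, Cd8a at 12.8 to 45.2 TPM in TdLN_CD40, 38.7 to 101 in TdLN and 64.2 to 114 in Healthy_iLN stood above Cd8b1 at 3.79 to 16.6, 4.13 to 23.0 and 9.33 to 28.8 TPM in these groups. Beside Wdfy4, which B cells also express, 12 B cell markers summed to 363 to 638 CPM in TdLN_CD40, 386 to 649 in TdLN and 326 to 576 in Healthy_iLN, and Cd79a and Ms4a1 were not called in any comparison (the smallest adjusted p was 0.245, that of Ms4a1 in TdLN_CD40 against Healthy_iLN). Of the 12, 1 was called higher and 0 lower in TdLN_CD40 against TdLN (3 and 2 with the block), 0 in TdLN against Healthy_iLN by edgeR (1 at an unadjusted p under 0.05, 2 higher with the block), and 1 higher and 1 lower in TdLN_CD40 against Healthy_iLN (4 and 1 with the block). Beside Gcsam, Bcl6, a transcription factor of germinal center B cells that dendritic cells also express, fell in TdLN_CD40 against Healthy_iLN (-0.66, adjusted p = 0.0236). Beside Clnk, the natural killer cell gene Ncr1 had 6.78 to 18.5 CPM in TdLN_CD40 and 4.16 to 8.25 in TdLN (1.06, adjusted p = 0.122, with the block 0.0104) and 6.50 to 13.6 in Healthy_iLN. The 12 natural killer cell markers summed to 149 to 291 CPM in TdLN_CD40, 148 to 208 in TdLN and 153 to 233 in Healthy_iLN. Of these, Gzma was called higher (2.15, adjusted p = 0.00435) and Klrd1 lower (-1.14, adjusted p = 0.0118) in TdLN_CD40 against TdLN (5 higher and 1 lower with the block). By edgeR 0 were called in TdLN against Healthy_iLN (5 at an unadjusted p under 0.05, 1 higher with the block), and 2 were called higher and 1 lower in TdLN_CD40 against Healthy_iLN (3 and 1 with the block). Beside Cadm1, which mast cells also carry, the 8 mast cell and basophil markers summed to 116 to 219 CPM in TdLN_CD40, 178 to 282 in TdLN and 145 to 223 in Healthy_iLN. Kit, also on the pan dendritic cell list below, had 106 to 272 CPM. Hdc stood at or below 8.81 CPM and Cpa3 at or below 2.81 CPM, and Mcpt8, Fcer1a and Ms4a2 did not pass the filter on low counts. Of the 5 tested, 0 were called in each comparison. With the block, 1 was lower in TdLN_CD40 against TdLN, 2 were higher in TdLN against Healthy_iLN and 1 was higher in TdLN_CD40 against Healthy_iLN.

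Other dendritic cell lists moved in the same libraries. The 20 genes of migratory and mature dendritic cells summed to 8401 to 12389 CPM in TdLN_CD40, 3947 to 5934 in TdLN and 4283 to 6220.0 in Healthy_iLN. In TdLN_CD40 against TdLN 9 of the 20 rose (16 with the block, median log2 fold change 0.76). Of 13 type 2 dendritic cell markers 4 fell against TdLN (7 with the block, median -0.44). Of 11 plasmacytoid dendritic cell markers 0 were called (6 lower with the block, median -0.55). Of 9 tested pan dendritic cell genes 0 were called (8 lower with the block, median -0.61), among them Itgax (-0.41, adjusted p = 0.431, with the block 0.0260) and Flt3 (-0.55, adjusted p = 0.187, with the block 0.00174). The 14 macrophage and monocyte markers summed to 1715 to 2598 CPM in TdLN_CD40, 931 to 1624 in TdLN and 910 to 1292 in Healthy_iLN (5 higher and 1 lower in TdLN_CD40 against TdLN), and the 10 neutrophil markers to 62.8 to 134, 49.8 to 131 and 27.0 to 38.0 CPM in these groups. These lists moved in the libraries in which the 9 genes fell, and their part in that fall was not tested.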

How the data were processed

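RNA of 12 libraries was quantified by the authors. The authors' deposited estimated counts per transcript are from Salmon and build mm10, as named in the submitters' processing notes, and the deposited TPM values came with them. The tables' own name says sailfish. Program version, annotation and filters: not given in the sources used here. Libraries were made with a directional kit from total RNA, per the labels' protocols. Of 132374 transcripts, 131974 matched GENCODE M21 and were summed to 52355 genes, and 400 were left out (0.116% to 0.147% of counts). Sums were rounded to whole numbers, and depth was 32626784 to 56320661 estimated counts per library.

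Genes were tested with edgeR 4.0.16 (R 4.3.3; TMM scaling, filterByExpr with a minimum count of 10, robust quasi-likelihood fit of 3 groups, 9 residual degrees of freedom, biological coefficient of variation 33.9%), adjusted over 23729 genes and checked on simulated data. CPM values are TMM-scaled, and log2 CPM used a prior count of 2. Members were also tested relative to Xcr1 by setting library sizes to its count. All 12 same-prefix pairs of libraries deviated together from the group means (lowest r 0.20), although pairs of different prefixes reached r of 0.33. The title prefix was therefore taken to pair libraries. It entered a second fit as a block (6 residual degrees of freedom, coefficient of variation 20.7%). Alternatives were size factors of DESeq2 (RLE), DESeq2 1.42.0, no count filter, limma 3.58.1 on log2(TPM + 0.5) for genes with a mean TPM of at least 0.5, Clec9a in place of Xcr1, and leaving out each library. The text names all 9 members, every called gene of the other cDC1 list and otherwise up to 4 with the smallest p, fixed markers beside single members (not all are reported here), and the 8 annotated genes with the most constant ratio to Xcr1 (predicted genes, RIKEN clones, pseudogenes and receptor segments left out). The members and lists were chosen with earlier results of these data known. Promoters came from RefSeq (GRCm38.p6). Salmon divides reads shared by overlapping transcripts by a model.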

Additional observations from a re-analysis of the deposited data

How the results depend on the processing

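The direction of the 9 genes' log2 fold changes in the 3 comparisons held under every alternative run but 1: Wdfy4 in TdLN against Healthy_iLN stood at 0.012 without TdLN replicate 1 (range with 1 library left out -0.31 to 0.012). Relative to Xcr1, values near 0 changed sign: Cd8a in TdLN_CD40 against TdLN was 0.031 without TdLN replicate 4, 0.016 without TdLN_CD40 replicate 1 and 0.034 without TdLN_CD40 replicate 2 (range -0.14 to 0.034), Naaa was 0.017 without TdLN_CD40 replicate 2 (range -0.17 to 0.017), and Cd8a in TdLN_CD40 against Healthy_iLN was -0.0024 without TdLN_CD40 replicate 4 (range -0.0024 to 0.18). Counts of calls moved more. In TdLN_CD40 against TdLN, 2 of the 9 genes were called, against 6 with DESeq2, 8 with the replicate block, 4 without prefix 1 in every group (with and without the block) and 0 to 5 with 1 library left out. Over all genes that comparison called 635, against 1090 with DESeq2, 3161 with the block, 352 and, with the block, 1609 without prefix 1, and 323 to 547 with 1 library left out. TdLN against Healthy_iLN called 47 genes, against 364 with DESeq2, 75 without the count filter, 1495 with the block, 0 and, with the block, 107 without prefix 1, and 0 to 101 with 1 library left out, and 0 of the 9 were called in each of these. TdLN_CD40 against Healthy_iLN called 1490 genes, against 4781 with the block, 2751 with the block and without prefix 1, and 829 to 1535 with 1 library left out, and 5 to 7 of the 9. Relative to Xcr1, 0 of 8 genes were called, against 3 with the block and 0 to 2 with 1 library left out in TdLN_CD40 against Healthy_iLN, and 0 to 1 with 1 library left out in TdLN_CD40 against TdLN. Limma on TPM ended the calls of Clec9a (adjusted p = 0.0959) and Naaa (adjusted p = 0.110) in TdLN_CD40 against TdLN, of Cadm1 (0.0632), Snx22 (0.0632) and Cd8a (0.0682) in TdLN_CD40 against Healthy_iLN, and of Ly75 in both (0.0759 against TdLN and 0.0956 against Healthy_iLN), Ppt1 (0.0967), Fzd1 (0.0719) and Pianp (0.0689) against Healthy_iLN. Without the count filter the call of Cd8a in TdLN_CD40 against Healthy_iLN ended (adjusted p = 0.0527), and without prefix 1 that of Clec9a in TdLN_CD40 against TdLN did (0.0696, with the block 0.0518), as did that of Hepacam2 without the block (0.0587). The cause of these changes was not tested. Leaving out prefix 1, and Clec9a as the ratio's base with the block, were chosen after seeing the data. With 4 libraries per group, the difference of 0.69 on the log2 scale between Clnk and Xcr1 (TdLN_CD40 against Healthy_iLN) was called with the block only. By Dixon's criterion, no library stood apart in the 27 sets of 4 values (9 genes in 3 groups).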
